A study of Mus musculus with 8 samples.

Results

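The response of statin-treated RAW macrophages to lipopolysaccharide (LPS) was described here across genes. Its members were the 11478 of 24421 entries of the gene table whose mean normalized count was at least 10 over the 4 libraries compared. RAW macrophages are an established mouse macrophage line transformed by a leukaemia virus. The tested libraries came from the statin LPS group (2 libraries), cells given 7 µM of a statin in lipoprotein deficient serum and then 100 ng/ml LPS for 3 h in medium with bovine serum albumin. They were compared with the statin group (2 libraries), which had the same statin and serum but no LPS. The study's methods describe the statin as lovastatin, given together with mevalonate and washed off before LPS. Cells without statin formed the ctl LPS group (2 libraries, the same LPS dose and time) and the untreated Ctrl group (2 libraries), used to ask where the response differed. They also entered the fit that sets the spread behind every p-value. Whether cells without LPS were moved to the albumin medium, and whether cells without statin had the lipoprotein deficient serum, was not stated in the sources used here, so LPS and a change of medium cannot be told apart.

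LPS, a component of the outer membrane of Gram-negative bacteria, is recognised by Toll-like receptor 4 with Cd14 and Ly96 at the cell surface. One branch of signalling, through Myd88, frees NF-κB from its IκB inhibitors and switches on cytokine and chemokine genes. The other, through Ticam1 and the kinases Tbk1 and Ikbke, leads to interferon beta, which is secreted and then drives antiviral genes through the interferon receptor. Statins block the production of mevalonate on the way to cholesterol, and cells that lack sterols raise their own sterol synthesis genes through Srebf2.

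Libraries held 58.3 M and 37.9 M reads in statin LPS, against 43.9 M and 41.9 M reads in statin, and 37.0 M to 76.4 M in cells without statin. Each value was a read count divided by a factor for the library, so 1 read was worth 0.781 to 1.33 normalized counts across the 8 libraries, and 3 reads, the most that a count of 0 allows, were worth 2.34 to 3.98. Counting error is covered by such limits, and other error is not. The statin replicates differed more from each other than the statin LPS replicates did. Across genes the robust SD of the log2 ratio of the 2 replicates was 0.0769 in statin LPS and 0.149 in statin. Without statin it was 0.0642 in ctl LPS and 0.214 in Ctrl, the widest pair. The ribosomal precursor Rn45s took up 1.72% of statin replicate 2 and 0.0705% to 0.153% of each other library. Nothing in the sources used here says whether the 2 libraries of a group came from separate cultures, so p-values measure the spread between these libraries only.

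All 20 genes of a macrophage identity list passed the minimum, and their summed normalized count was 1328638 and 1289961 in statin LPS libraries, against 1382161 and 1546309 in statin libraries. Of 9 lymphocyte markers 8 stayed below the minimum, 4 of them without a read in the 4 libraries. The other was Lck, a kinase of T cells, with 419 and 399.8 in statin LPS libraries, against 288 and 235 in statin libraries. Of 9 listed neutrophil and mast cell markers 8 were found in the table by symbol, and these 8 stayed below the minimum, with a sum of 18.3 and 15.9 in statin LPS libraries, against 9.85 and 9.40 in statin libraries. A set of transcripts that resting RAW macrophages lack did appear after LPS. C1qb, a subunit of the complement factor C1q made by tissue macrophages, had 149.6 and 169 in statin LPS libraries, against 0 and 0.94 in statin libraries, and 806 and 0 in ctl LPS libraries, against 0.781 and 1.96 in Ctrl libraries. Col1a2, a chain of type I collagen made by fibroblasts, had 119 and 135 in statin LPS libraries, against 0 and 0 in statin libraries, and 289 and 1.25 in ctl LPS libraries, against 0 and 0 in Ctrl libraries. C1qb and Col1a2 were thus uneven between the ctl LPS replicates, which were treated alike. In all, 40 tested genes were below 10 in the 4 libraries without LPS and over 4 times higher in ctl LPS replicate 1 than in ctl LPS replicate 2. Their summed normalized count was 1941 and 2262 in statin LPS libraries, against 31.3 and 27.3 in statin libraries. In libraries without statin it was 5448 and 75.1 in ctl LPS, against 10.9 and 12.7 in Ctrl. Each of the 40 genes passed the minimum only through statin LPS, so all had to be higher there than in statin. Of the 40 genes, 35 were among those that were over 2-fold higher in statin LPS, beside 8.15% of all genes tested. The part of other cells or of another sample in them was not tested, and those named below are called uneven. Of 9 fibroblast markers 4 were tested, of which 3 rose and 1 fell. Those that rose, Col1a1, Col1a2 and Col3a1, averaged below 10 in statin and passed only through statin LPS, so their direction was fixed by the minimum. The gene that fell was Pdgfrb, a receptor for platelet-derived growth factor, with 129 and 138 in statin LPS libraries, against 436 and 596 in statin libraries (log2 change -1.93, SE 0.58, adjusted p = 0.021), and it missed the threshold in each of the 4 fits without 1 statin LPS or statin library (adjusted p 0.0585 to 0.122 by limma).

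**Figure D1:**
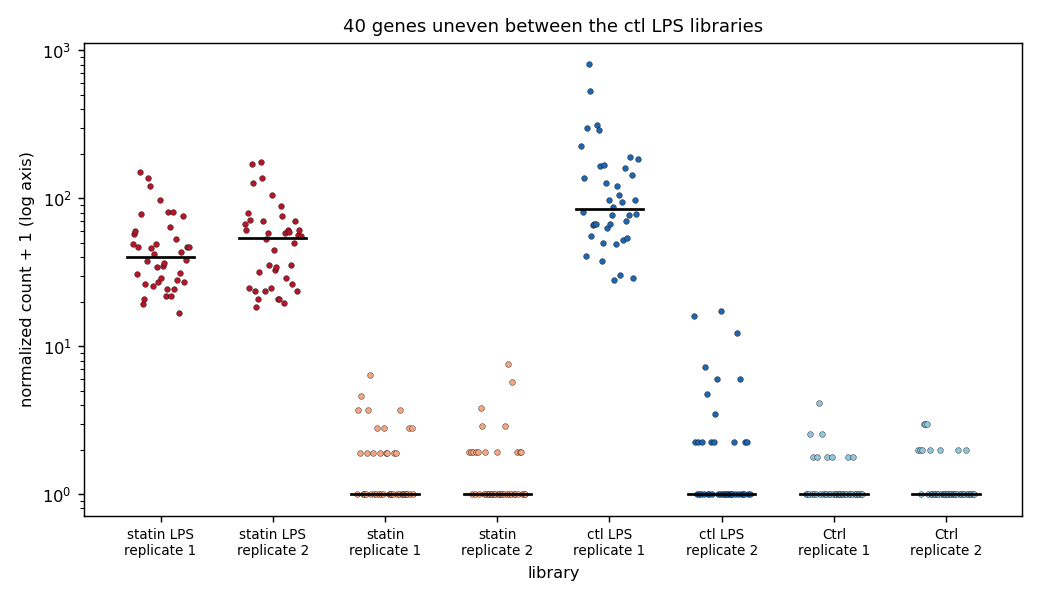
Normalized counts plus 1 (vertical, log axis) of the 40 uneven genes in each of the 8 libraries (horizontal), 1 point per gene, with the median as a bar. The genes sit high in both statin LPS libraries and in ctl LPS replicate 1, and low in ctl LPS replicate 2 and in the 4 libraries without LPS. The rule that picked them fixed the low values without LPS, a higher mean in statin LPS and the gap between the ctl LPS replicates.

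The expression of 6709 genes differed between statin LPS and statin libraries. By limma on log2(normalized count + 1), with Benjamini-Hochberg adjustment over all 11478 genes and a threshold of 0.05, 3353 genes (29.2%) were higher in statin LPS and 3356 (29.2%) were lower. There were 936 genes (8.15%) more than 2-fold higher and 825 (7.19%) more than 2-fold lower, but 709 and 1717 when every library was given the same total. More than 16-fold higher were 163 genes, and more than 16-fold lower were 4. All 6709 called genes had replicates that did not overlap between the groups, as did 83.8% of all genes tested. The log2 scale with 1 added understates the change of genes with low counts. Of the genes tested, 194 had a mean below 10 in statin and 152 had a mean below 10 in statin LPS, and each of these passed only through its higher group.

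The even split depends on how the libraries were scaled. The normalized counts summed to 50.7 M and 50.3 M in statin LPS libraries, against 39.3 M and 39.4 M in statin libraries. Of the difference of 11.2 M between the means, 7.97 M lay in the 100 genes with the largest gain. When every library was rescaled to the same total, the median log2 change of all genes was -0.38 instead of -0.02, and 1512 genes were called higher and 6655 lower (18.5% higher, against 50%). Changes below are given on the deposited scale, with the counts of a list on another scale where they moved its balance. Each count of a list is to be read beside the 29.2% of all genes called in each direction. Without statin replicate 2 and ctl LPS replicate 1, the libraries that stood apart, 2230 genes were higher and 2181 lower. Of these, 2209 and 2124 were called in the same direction with all 8 libraries. In that fit 43 of 43 interferon response genes, 24 of 25 cytokine genes and 18 of 20 chemokine genes were still higher, and 24 of 35 cell cycle genes lower.

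**Figure D2:**
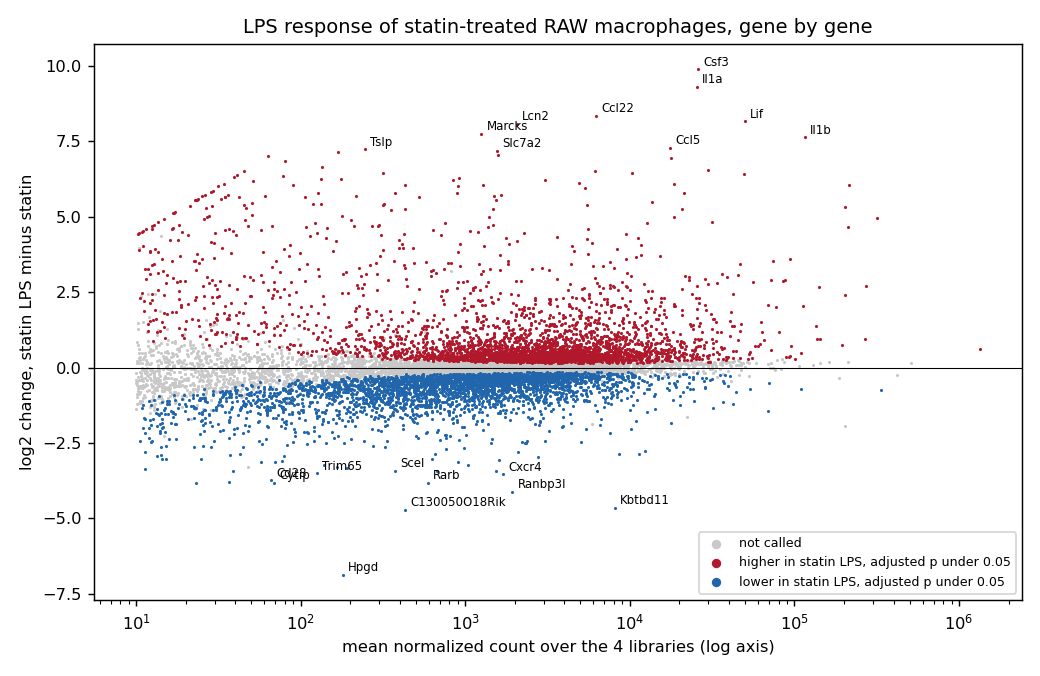
The log2 change of every gene with a symbol (vertical, statin LPS minus statin) against its mean normalized count over the 4 libraries (horizontal, log axis), coloured by the call. The 10 largest rises and the 10 largest falls among genes averaging at least 100 in the higher group are named, and Csf3 and Il1a stand at the top with Hpgd at the bottom.

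Csf3, granulocyte colony-stimulating factor, which drives neutrophil production, had 52705 and 50503 in statin LPS libraries, against 59.1 and 48.9 in statin libraries (log2 change 9.88, SE 0.26, adjusted p = 4.46e-08). Il1a, interleukin-1 alpha, an alarm cytokine that acts on most tissues, had 51865 and 49703 in statin LPS libraries, against 78.8 and 79.9 in statin libraries (log2 change 9.30, SE 0.06, adjusted p = 2.36e-11). Neither exceeded 100 in a statin library, and the statin LPS replicates of each lay far above both statin replicates. Ccl22, a chemokine that attracts regulatory T cells, had 12847 and 11830 in statin LPS libraries, against 34.03 and 40.4 in statin libraries (log2 change 8.34, SE 0.21, adjusted p = 3.52e-08). Lif, a cytokine of the interleukin-6 family, had 101014 and 97088 in statin LPS libraries, against 408 and 291 in statin libraries (log2 change 8.16). Lcn2, lipocalin 2, which withholds iron from bacteria by binding their siderophores, had 3939 and 4265 in statin LPS libraries, against 13.4 and 15.0 in statin libraries (log2 change 8.07). Tslp, a cytokine that acts on dendritic cells, had 488 and 491 in statin LPS libraries, against 2.69 and 1.88 in statin libraries (log2 change 7.23). The list of the 10 largest rises was completed by Marcks, a substrate of protein kinase C at the cell membrane (log2 change 7.75), Il1b (7.62), Ccl5 (7.27) and Slc7a2, an arginine transporter (7.18).

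The genes that fell most belonged to no single pathway of the lists. Hpgd, the dehydrogenase that inactivates prostaglandin E2, had 0.87 and 3.98 in statin LPS libraries, against 321 and 393 in statin libraries (log2 change -6.87, SE 0.43, adjusted p = 4.60e-06). It fell while Ptgs2, the enzyme that starts prostaglandin synthesis, rose. Kbtbd11, a protein with BTB and Kelch domains, had 653 and 584 in statin LPS libraries, against 15590 and 15604 in statin libraries (log2 change -4.66, SE 0.20, adjusted p = 5.18e-07). Ranbp3l had 238 and 183 in statin LPS libraries, against 3327 and 3986 in statin libraries (log2 change -4.12). Cxcr4, the receptor that holds leukocytes in bone marrow through its ligand Cxcl12, had 312 and 232 in statin LPS libraries, against 3155 and 3102 in statin libraries (log2 change -3.53, SE 0.29, adjusted p = 2.29e-05). The other members of the 10 largest falls were C130050O18Rik (log2 change -4.71), Cytip (-3.82), which binds cytohesins, Rarb (-3.82), a retinoic acid receptor, Cd28 (-3.74), a costimulatory receptor best known on T cells, Trim65 (-3.50) and Scel (-3.43). In the annotation 38.4% of the exonic bases of Rarb and 24.8% of those of Kbtbd11 are shared with genes on the opposite strand, and whether reads were counted by strand was not stated, so reads of the partner genes cannot be told apart from theirs.

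The LPS receptor itself was not called. Tlr4 had 8172 and 8235 in statin LPS libraries, against 8326 and 8975 in statin libraries (log2 change -0.08, SE 0.07, adjusted p = 0.37), and it was called lower under both other scalings (log2 change -0.44 with equal totals and -0.41 with quantile normalization). Cd14, the co-receptor that hands LPS to Tlr4, had 188699 and 188957 in statin LPS libraries, against 98488 and 95923 in statin libraries (log2 change 0.96, SE 0.10, adjusted p = 8.42e-05), a rise that quantile normalization removed (log2 change -0.03). Of 23 tested genes of the Tlr4 complex, its adaptors and its kinases, 16 rose and 2 fell, with a median log2 change of 0.60, against -0.02 over all genes. Ikbke, a kinase of the interferon branch, rose most and had 15011 and 14038 in statin LPS libraries, against 1329 and 1666 in statin libraries (log2 change 3.29, SE 0.11, adjusted p = 1.27e-07). The 2 genes that fell were both early kinases of the Myd88 branch, Irak4 (log2 change -0.42) and Irak1 (-0.39). With equal totals 12 genes of this list rose and 7 fell.

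Most other sensors of microbes rose. Of 19 tested, 13 rose and 5 fell, and the same numbers were called with equal totals and with quantile normalization. The 13 include Fpr1, which averaged below 10 in statin and passed only through statin LPS, so it had to be higher there. Of the other 18 genes 12 rose and 5 fell. Nod2, a cytosolic sensor of bacterial cell wall fragments, had 3939 and 3722 in statin LPS libraries, against 432 and 635 in statin libraries (log2 change 2.87). Fpr1, the receptor for formylated bacterial peptides, had 52.2 and 42.5 in statin LPS libraries, against 0 and 0 in statin libraries. With 0 reads in both statin libraries, its rise was at least 35.2-fold, taking 3 reads over the statin group as the limit. The genes that fell were Tlr13, a sensor of bacterial ribosomal RNA in mice (log2 change -2.09), the ATP receptor P2rx7 (-1.73), the lectin receptors Clec7a (-0.80) and Clec4n (-0.59), and Tlr7 (-0.52), a sensor of single-stranded RNA.

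Genes of the NF-κB system rose nearly as a whole. Of 14 tested subunits, inhibitors and kinases, 13 rose and 1 fell, and the median log2 change was 1.97. Nfkbiz, which encodes the atypical inhibitor IκBζ needed for secondary genes such as Il6, had 60707 and 61765 in statin LPS libraries, against 2213 and 2136 in statin libraries (log2 change 4.82, SE 0.06, adjusted p = 1.09e-09). Nfkbia, which encodes IκBα and shuts NF-κB off again, had 82314 and 79412 in statin LPS libraries, against 8435 and 10918 in statin libraries (log2 change 3.07, SE 0.12, adjusted p = 3.82e-07). The subunit genes Nfkb2 (log2 change 3.04), Nfkb1 (2.78) and Rel (2.63) had larger log2 changes than Rela (0.76). Ikbkg, the scaffold of the IκB kinase, was the gene that fell (log2 change -0.19, adjusted p = 0.042), and this small change missed the threshold in each of the 6 fits that left out a library with LPS or a statin library (adjusted p 0.0768 to 0.19).

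Brakes on the same pathway rose with it. Of 26 tested, 19 rose and 3 fell, with a median log2 change of 1.26, and with equal totals 16 rose and 5 fell. Il10 averaged below 10 in statin and passed only through statin LPS, so it had to be higher there. Of the other 25 genes 18 rose and 3 fell, with a median log2 change of 1.02. Tnfaip3, which encodes A20, an enzyme that removes ubiquitin chains from NF-κB signalling proteins, had 21317 and 21906 in statin LPS libraries, against 1484 and 1764 in statin libraries (log2 change 3.74, SE 0.08, adjusted p = 1.80e-08). Socs3, a suppressor of cytokine receptor signalling, had 24236 and 24583 in statin LPS libraries, against 818 and 972 in statin libraries (log2 change 4.77, SE 0.08, adjusted p = 5.44e-09). Il10, the anti-inflammatory cytokine, had 87.9 and 93.0 in statin LPS libraries, against 0 and 0 in statin libraries, a rise of at least 65.3-fold over the limit of 3 reads in the statin group. The 3 genes that fell were Zfp36l2 and Zfp36l1, which promote the decay of messages with AU-rich elements, and Tsc22d3, a glucocorticoid-induced gene. Zfp36l2 had 2104 and 2012 in statin LPS libraries, against 14401 and 15824 in statin libraries (log2 change -2.87, SE 0.07, adjusted p = 2.29e-08), the reverse of its relative Zfp36, which rose (log2 change 2.92).

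Immediate early genes, which in many cells peak within the first hour of a stimulus, were divided at 3 h. Of 26 tested, 15 rose and 7 fell, beside 29.2% of all genes in each direction, and the median log2 change was 0.78. With equal totals 12 rose and 9 fell. Nr4a3, a nuclear receptor, had 4579.5 and 4131 in statin LPS libraries, against 282 and 135 in statin libraries (log2 change 4.47, SE 0.34, adjusted p = 1.41e-05). Jun, a subunit of the AP-1 transcription factor, had 3190.2 and 3031 in statin LPS libraries, against 10949 and 9593 in statin libraries (log2 change -1.72, SE 0.17, adjusted p = 7.14e-05), whereas its relative Junb rose (log2 change 1.84). Fos, the partner of Jun, had 1067 and 993 in statin LPS libraries, against 1522 and 1786 in statin libraries (log2 change -0.68, SE 0.12, adjusted p = 0.0018). Of the 12 MAP kinase phosphatases, which switch off the kinases upstream of AP-1, 5 rose and 4 fell, numbers near the 29.2% of all genes called in each direction, and 4 rose and 5 fell with equal totals. Dusp2 had 4586 and 4585 in statin LPS libraries, against 520.3 and 429.5 in statin libraries (log2 change 3.28, SE 0.09, adjusted p = 5.55e-08). Dusp1, the phosphatase that limits p38 signalling, had 2502 and 2335 in statin LPS libraries, against 3032 and 2105 in statin libraries, groups that overlapped. Dusp6 fell (log2 change -1.004, adjusted p = 0.026), but missed the threshold without either statin LPS replicate or without statin replicate 2 (adjusted p 0.0604 to 0.177 by limma).

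All 25 tested cytokine genes rose, against 29.2% of all genes. Of these, Csf2, Il10, Il12b and Tnfsf14 averaged below 10 in statin and passed the minimum only through statin LPS, so they had to be higher there. The other 21 all rose, with a median log2 change of 3.84. With equal totals 24 of the 25 rose, and with quantile normalization all 25 did. Tnf, the founding member of its family and an early product of activated macrophages, had 406149 and 406577 in statin LPS libraries, against 18290 and 14292 in statin libraries (log2 change 4.65, SE 0.12, adjusted p = 3.74e-08). Il1b, the secreted interleukin-1 that is cut by inflammasomes, had 223873 and 233862 in statin LPS libraries, against 886 and 1519.8 in statin libraries (log2 change 7.62, SE 0.20, adjusted p = 4.82e-08). Both were thus detected before LPS. Il6, which drives the acute phase response of the liver, had 539 and 600.3 in statin LPS libraries, against 22.4 and 19.7 in statin libraries (log2 change 4.69, SE 0.13, adjusted p = 5.55e-08). Csf2, granulocyte-macrophage colony-stimulating factor, had 560.3 and 691 in statin LPS libraries, against 4.48 and 8.46 in statin libraries (log2 change 6.44, SE 0.32, adjusted p = 1.27e-06). Il12b, the p40 chain of interleukin-12 and interleukin-23, had 60.9 and 65.1 in statin LPS libraries, against 0 and 0 in statin libraries, at least 45.5-fold higher. Ifnb1, interferon beta, had 857 and 619 in statin LPS libraries, against 13.4 and 11.3 in statin libraries (log2 change 5.78, SE 0.27, adjusted p = 8.84e-07). The smallest rise of the list was that of Il16 (log2 change 0.32).

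**Figure D3:**
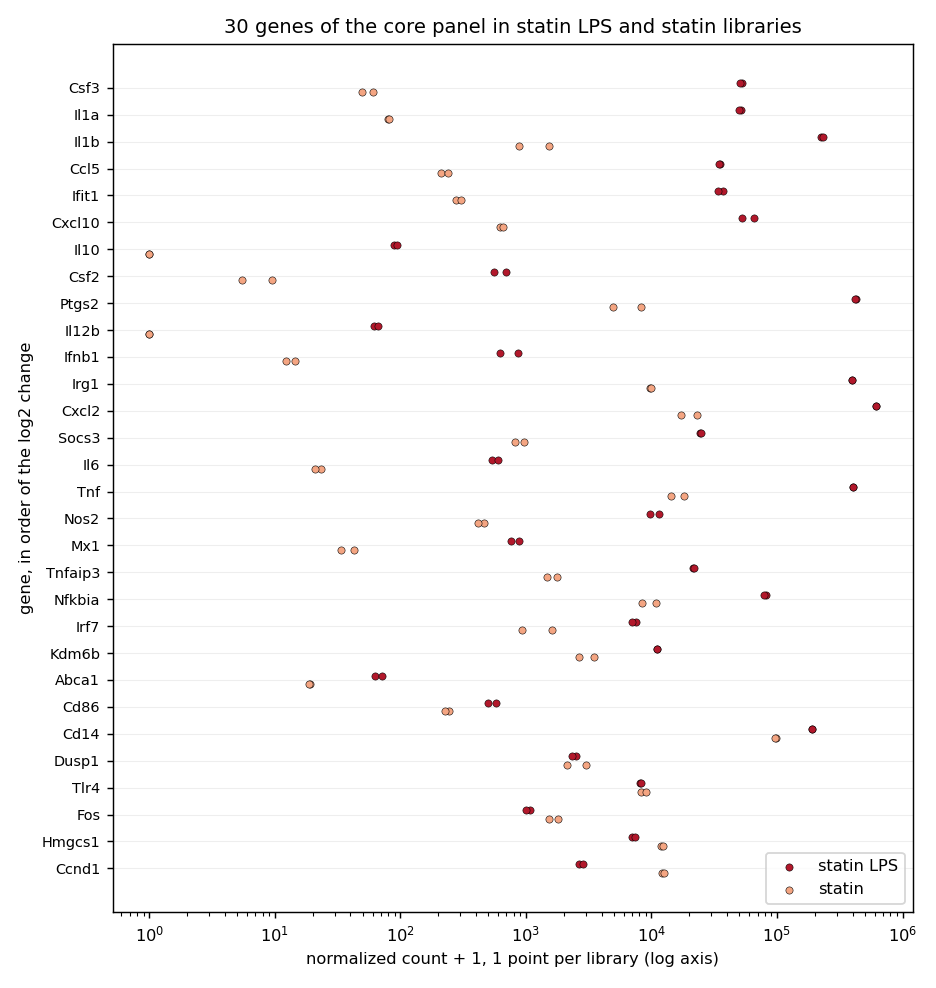
Normalized counts plus 1 (horizontal, log axis) of 30 of the 32 genes of a core panel (vertical, in order of their log2 change) in the 2 statin LPS and the 2 statin libraries, 1 point per library. Of the 30 genes drawn, 25 rose, 3 fell and 2 were not called, beside 29.2% of all genes called in each direction. Csf2, Il10 and Il12b passed the minimum only through statin LPS, so their direction was fixed by it. The replicates of a group lie close beside the distance between the groups in the genes that rose most.

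Chemokine genes rose in 18 of 20 cases. Of the 18, Ccl12, Ccl17, Cx3cl1, Cxcl1, Cxcl3, Cxcl5 and Cxcl9 averaged below 10 in statin and passed only through statin LPS, so their direction was fixed by the minimum. Of the other 13 chemokine genes 11 rose and 0 fell, and their median log2 change was 4.72. With equal totals 1, Cxcl14, was called lower. It had 438 and 363 in statin LPS libraries, against 779.9 and 732 in statin libraries (log2 change -0.92, SE 0.46, adjusted p = 0.12). Cxcl2, which draws neutrophils, had 619353 and 614126 in statin LPS libraries, against 23054 and 17072 in statin libraries (log2 change 4.96, SE 0.14, adjusted p = 5.55e-08), and its gain of 596677 normalized counts was the largest of all genes, on a scale not corrected for transcript length. Ccl5, which draws T cells and monocytes, had 35115 and 34591 in statin LPS libraries, against 209.5 and 241 in statin libraries (log2 change 7.27, SE 0.10, adjusted p = 1.37e-09). Cxcl10, induced through interferon as well as NF-κB, had 65725 and 52764 in statin LPS libraries, against 621 and 651 in statin libraries (log2 change 6.53, SE 0.10, adjusted p = 1.97e-09). Cxcl1 and Cxcl5 were counted among the 18 and were uneven. Cxcl1 had 95.7 and 105 in statin LPS libraries, against 1.79 and 0.94 in statin libraries, but 95.8 and 16.3 in ctl LPS libraries, against 0 and 0 in Ctrl libraries, and Cxcl5 had 33.9 and 31.9 in statin LPS libraries, against 0.895 and 0 in statin libraries, but 76.4 and 0 in ctl LPS libraries, against 0 and 0 in Ctrl libraries.

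Stretches before the transcription start are shown for genes of the core panel that stand for the branches of the response, because the letters that NF-κB, interferon-activated factors and AP-1 bind are known. Each is taken from RefSeq (GRCm38.p6), runs 5′ to 3′ on the strand of the gene up to the base before its start, and carries in capitals the matches to the motif named. For Cxcl2 (chr5:90903749-90903898, plus strand) and Il6 (chr5:30012964-30013113, plus strand), the capitals mark the NF-κB consensus. They begin 97 bases before the start in Cxcl2, where a pair of matches overlap by all but 1 base, and 44 bases before it in Il6.
Cxcl2: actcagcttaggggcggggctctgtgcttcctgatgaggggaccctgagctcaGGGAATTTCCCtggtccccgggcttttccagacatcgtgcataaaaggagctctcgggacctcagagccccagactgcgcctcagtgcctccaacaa
Il6: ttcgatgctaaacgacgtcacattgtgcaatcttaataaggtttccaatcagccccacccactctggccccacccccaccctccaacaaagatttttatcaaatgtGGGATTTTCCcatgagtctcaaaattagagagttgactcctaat
For Nfkbia (chr12:55492648-55492797, minus strand), the capitals mark first the core of the interferon-stimulated response element, GAAANNGAA or its complement, and then the NF-κB consensus. For Il1a (chr2:129309973-129310122, minus strand), they mark the TATA box, TATAAA, and an AP-1 motif, TGANTCA. For Irg1 (chr14:103046862-103047011, plus strand) they mark the TATA box.
Nfkbia: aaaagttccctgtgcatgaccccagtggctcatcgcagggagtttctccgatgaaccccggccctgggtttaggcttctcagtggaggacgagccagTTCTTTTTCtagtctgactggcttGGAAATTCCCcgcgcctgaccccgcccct
Il1a: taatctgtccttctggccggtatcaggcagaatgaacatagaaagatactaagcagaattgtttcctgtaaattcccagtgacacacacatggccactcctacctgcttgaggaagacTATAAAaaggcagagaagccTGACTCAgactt
Irg1: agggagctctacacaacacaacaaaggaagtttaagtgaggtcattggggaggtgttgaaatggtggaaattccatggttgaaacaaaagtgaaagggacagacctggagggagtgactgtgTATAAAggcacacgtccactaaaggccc
Of the 11478 genes tested, 8802 had at least 1 promoter window in RefSeq's table (300 bases, 250 of them before the start), with 11193 windows in all. The NF-κB consensus, searched on both strands like the other motifs except TATAAA, was in 46 of 418 windows (11%) of the genes more than 4-fold higher, in 40 of 815 (4.91%) of those more than 2-fold lower, in 5.24% of the windows of all genes tested and in 4.51% of all 32851 windows on record. AP-1 motifs were in 65 of the 418 windows (15.6%) and 42 of the 815 (5.15%), beside 5.15% of the windows of genes tested and 7.81% of all windows. TATA boxes on the strand of the gene were in 51 of the 418 (12.2%) and 33 of the 815 (4.05%), beside 4.29% of the windows of genes tested and 8.32% of all windows searched. Shares in the genes more than 2-fold lower were thus close to those in the genes tested. Windows of the genes more than 2-fold higher had shares of 8.59% for NF-κB, 10.9% for AP-1 and 9.57% for TATA boxes, with 15.4 CG pairs a window. These shares describe letters and no binding, several windows can belong to 1 gene, and windows of genes more than 4-fold higher held fewer CG pairs (12.2 a window) than those of genes more than 2-fold lower (19.0).

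The interferon response rose without exception. All 43 tested genes were higher in statin LPS, under the deposited scale, equal totals and quantile normalization alike, and 42 were more than 2-fold higher. Ifi205 was the member that averaged below 10 in statin and passed only through statin LPS. Their median log2 change was 3.52. Ifit1, which binds viral RNA that lacks a proper cap, rose most and had 37147 and 33716 in statin LPS libraries, against 276 and 304 in statin libraries (log2 change 6.93, SE 0.08, adjusted p = 6.05e-10). Mx1, a GTPase that blocks influenza virus, had 873 and 754 in statin LPS libraries, against 42.1 and 32.9 in statin libraries (log2 change 4.41, SE 0.21, adjusted p = 1.09e-06). Irf7, the factor that amplifies interferon genes, had 7472 and 6939.8 in statin LPS libraries, against 929 and 1602 in statin libraries (log2 change 2.56, SE 0.35, adjusted p = 4.06e-04). The smallest rise was that of Bst2, which tethers viruses to the cell (log2 change 0.84). Members of the Oas, Gbp and Ifit families are close copies of each other, so the division of reads among them is uncertain. Of the 8 tested interferon regulatory factors, 7 rose, led by Irf1 (log2 change 4.43), and with equal totals 5 rose and 1 fell. Irf3, which is present before a stimulus and is activated by phosphorylation, had 1546 and 1592 in statin LPS libraries, against 1752 and 1672 in statin libraries (log2 change -0.13, adjusted p = 0.11).

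Response element cores are shown for Cxcl10, beside its NF-κB matches, and for Ifit1, which carries several. For Cxcl10 (chr5:92348890-92349109, minus strand) the capitals mark first GAAANNGAA, which starts 213 bases before the start, and then NF-κB matches that start 159 and 103 bases before it. For Ifit1 (chr19:34640739-34640888, plus strand) they mark 3 copies of the complement of GAAANNGAA, of which the first pair overlap.
Cxcl10: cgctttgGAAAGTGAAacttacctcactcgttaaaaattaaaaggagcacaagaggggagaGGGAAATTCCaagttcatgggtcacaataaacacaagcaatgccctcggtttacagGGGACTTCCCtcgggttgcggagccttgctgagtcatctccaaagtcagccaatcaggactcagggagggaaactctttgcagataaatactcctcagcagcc
Ifit1: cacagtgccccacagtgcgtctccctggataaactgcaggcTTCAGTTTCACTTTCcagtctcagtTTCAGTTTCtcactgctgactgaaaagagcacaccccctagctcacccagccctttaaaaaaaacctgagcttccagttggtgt
GAAANNGAA or its complement was in 23 of 39 windows (59.0%) of the interferon response genes. In the windows of genes more than 4-fold higher the share was 19.4%, and in those of genes more than 2-fold higher 14.2%. It was 5.52% in those of genes more than 2-fold lower, 7.32% in those of all genes tested and 8.56% in all windows searched.

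Enzymes and secreted effectors of activated macrophages rose in 24 of 26 cases, and 1 fell. Leaving aside Mmp13, Serpinb2 and Upp1, which averaged below 10 in statin and passed only through statin LPS, 21 of 23 rose, with a median log2 change of 2.11. Ptgs2, the inducible cyclooxygenase, had 424984 and 416387 in statin LPS libraries, against 8192 and 4907 in statin libraries (log2 change 6.05, SE 0.20, adjusted p = 1.35e-07). Irg1, which makes itaconate from an intermediate of the citrate cycle, had 393538 and 395137 in statin LPS libraries, against 9809 and 9869 in statin libraries (log2 change 5.32, SE 0.07, adjusted p = 1.25e-09). Nos2, the inducible nitric oxide synthase, had 11534 and 9822 in statin LPS libraries, against 464 and 416 in statin libraries (log2 change 4.59, SE 0.11, adjusted p = 2.30e-08). The arginine transporter Slc7a2, which supplies Nos2, had 3133 and 3027 in statin LPS libraries, against 19.7 and 20.7 in statin libraries. Plau, the plasminogen activator urokinase, fell and had 6198 and 5974 in statin LPS libraries, against 18499 and 11076 in statin libraries (log2 change -1.23, SE 0.21, adjusted p = 0.0012), although Plaur, its receptor, rose (log2 change 2.04). With equal totals 20 genes of this list rose and 2 fell.

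Among 28 genes of the inflammasome and of cell death, 20 rose and 4 fell, and with equal totals 15 rose and 7 fell. Nlrp3, the sensor of the best known inflammasome, had 63524 and 65682 in statin LPS libraries, against 7263 and 7806 in statin libraries (log2 change 3.10). The death receptor Fas had 2283 and 2307 in statin LPS libraries, against 201 and 312 in statin libraries (log2 change 3.19, SE 0.19, adjusted p = 4.22e-06). Of the survival genes, Bcl2 fell and had 772 and 729 in statin LPS libraries, against 1959 and 1799 in statin libraries (log2 change -1.32, SE 0.08, adjusted p = 4.45e-06), whereas its relatives Bcl2a1d (log2 change 2.98), Bcl2a1b (2.69) and Bcl2l1 (1.35) rose. Bcl2a1b and Bcl2a1d are near-identical copies, so the division of reads between them is uncertain. Among the others that fell were Nlrp1b (log2 change -0.72), a sensor of inflammasomes, and Pmaip1 (-0.32), which promotes apoptosis.

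Antigen presentation and costimulation genes rose in 21 of 23 cases and fell in 0. Without H2-Aa and Vcam1, which averaged below 10 in statin and passed only through statin LPS, 19 of 21 rose. Cd40, the receptor for help from T cells, had 10306 and 11260 in statin LPS libraries, against 193 and 337 in statin libraries (log2 change 5.39). Cd86, a ligand of Cd28, had 575 and 498 in statin LPS libraries, against 244 and 227 in statin libraries (log2 change 1.182, SE 0.14, adjusted p = 1.47e-04). Vcam1 and H2-Aa were among its largest rises and were higher in ctl LPS replicate 1 than in ctl LPS replicate 2. Vcam1, an uneven gene by the rule above and an adhesion molecule, had 46.1 and 54.5 in statin LPS libraries, against 0 and 0 in statin libraries, with 184 and 0 in ctl LPS libraries, against 0 and 0 in Ctrl libraries, and it missed the threshold in each of the 4 fits without 1 statin LPS or statin library (adjusted p 0.115 to 0.129). H2-Aa, a chain of the class II complex, had 27.8 and 34.5 in statin LPS libraries, against 0 and 1.88 in statin libraries, with 102 and 10.0 in ctl LPS libraries, against 18.7 and 11.8 in Ctrl libraries. Class I genes rose by less, with a log2 change of 0.46 for H2-K1 and 0.36 for B2m.

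Receptors for cytokines and chemokines went both ways. Of 28 tested, 12 rose and 7 fell on the deposited scale, beside 29.2% of all genes in each direction, but 6 rose and 12 fell with equal totals. Ccrl2, an atypical receptor that binds chemerin, had 22070 and 20801 in statin LPS libraries, against 945 and 1282 in statin libraries (log2 change 4.28, SE 0.23, adjusted p = 1.90e-06). Tnfrsf1b, the second Tnf receptor, had 83383 and 87927 in statin LPS libraries, against 7461 and 8601 in statin libraries (log2 change 3.42), while Tnfrsf1a had 6207 and 6328 in statin LPS libraries, against 5491 and 5747 in statin libraries (0.16). Besides Cxcr4, the largest fall was that of Il6ra, the interleukin-6 receptor, which had 446 and 405 in statin LPS libraries, against 2203 and 2639 in statin libraries (log2 change -2.50).

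Genes of cholesterol synthesis and uptake, whose expression the statin itself is known to raise, went down after LPS. Of 29 tested, 18 fell and 4 rose, against 29.2% of all genes in each direction, and the median log2 change was -0.63. With equal totals 26 fell and 1 rose, and without the 2 libraries that stood apart 10 fell and 2 rose. Dhcr7, the last enzyme of one route to cholesterol, had 755 and 730.5 in statin LPS libraries, against 3721 and 4255 in statin libraries (log2 change -2.42, SE 0.13, adjusted p = 1.78e-06). Hmgcs1, which makes HMG-CoA, had 7041 and 7356 in statin LPS libraries, against 11838 and 12417 in statin libraries (log2 change -0.75, SE 0.22, adjusted p = 0.020). The fall of Hmgcs1 missed the threshold in each of the 4 fits without 1 statin LPS or statin library (adjusted p 0.0693 to 0.0975). The largest rise was that of Mylip, a ubiquitin ligase that limits the uptake of lipoproteins and had 408 and 287 in statin LPS libraries, against 88.6 and 85.5 in statin libraries (log2 change 1.96, SE 0.15, adjusted p = 1.47e-05). A sterol response element, TCACCCCAC, was in 1 of the 27 windows of this list, that of Hmgcs1 (chr13:119690201-119690350, plus strand), where it is in capitals, and in 0.551% of all windows.
Hmgcs1: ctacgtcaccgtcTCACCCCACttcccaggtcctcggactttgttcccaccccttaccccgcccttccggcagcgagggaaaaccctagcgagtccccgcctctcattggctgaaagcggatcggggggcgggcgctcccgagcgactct

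Fatty acid synthesis genes fell in 11 of 17 cases and rose in 2, and with equal totals 15 fell and 0 rose. Lpin1, a phosphatidate phosphatase, had 269.7 and 254 in statin LPS libraries, against 2527 and 3119.6 in statin libraries (log2 change -3.42, SE 0.19, adjusted p = 2.21e-06). Scd2, which puts a double bond into saturated fatty acids, had 3139 and 3226 in statin LPS libraries, against 21489 and 21670 in statin libraries (log2 change -2.76), and Scd1 had 1784 and 1805 in statin LPS libraries, against 4947 and 4802 in statin libraries (-1.44). Those that rose were Acsl1 (log2 change 0.48) and Acsl4 (0.27), which attach coenzyme A to long fatty acids.

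The 2 ATP-driven cholesterol exporters moved in opposite directions. Abcg1, which passes cholesterol to high density lipoprotein, had 105 and 121 in statin LPS libraries, against 1116 and 1339 in statin libraries (log2 change -3.43, SE 0.10, adjusted p = 8.25e-08). Abca1, which loads apolipoprotein A1, rose and had 61.8 and 70.4 in statin LPS libraries, against 17.9 and 17.9 in statin libraries (log2 change 1.83, SE 0.12, adjusted p = 6.08e-06). Its level was lower than without statin, where it was 7240.5 and 7049.9 in ctl LPS and 458 and 517 in Ctrl libraries. Both are targets of the sterol-sensing LXR receptors. Of 15 tested LXR targets and efflux genes, 5 rose and 7 fell, beside 29.2% of all genes in each direction, and quantile normalization gave 5 and 5. Apoe, which carries lipids out of macrophages, was not called and had 1321 and 1616 in statin LPS libraries, against 198 and 127 in statin libraries, with an uneven pair of 6525 and 31.3 in ctl LPS libraries, against 139 and 132 in Ctrl libraries.

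Cell cycle genes fell in 27 of 35 cases, and 3 rose. The median log2 change was -0.76, and with equal totals 32 fell. Ccnd1, cyclin D1, which carries cells into S phase, had 2659.5 and 2828 in statin LPS libraries, against 12126 and 12613 in statin libraries (log2 change -2.17, SE 0.09, adjusted p = 5.35e-07). The 3 that rose were Ccnd2, Cdkn1a and Cdt1. Ccnd2, cyclin D2, had 744 and 757 in statin LPS libraries, against 40.3 and 38.5 in statin libraries (log2 change 4.22, SE 0.68, adjusted p = 0.001), so cyclins D1 and D2 went in opposite directions. Cdkn1a, which encodes the inhibitor p21, had 37563 and 38074 in statin LPS libraries, against 15257 and 14022 in statin libraries (log2 change 1.37). Among mitotic genes, Ccnb1, cyclin B1, had 1299 and 1338 in statin LPS libraries, against 1924 and 1916 in statin libraries (log2 change -0.54) and the kinase gene Plk1 had 686 and 709 in statin LPS libraries, against 1152 and 1154 in statin libraries (-0.72).

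Few genes of mitochondrial respiration changed on the deposited scale. Of 30 nuclear genes of the respiratory complexes, 2 rose, Uqcrq (log2 change 0.39) and Uqcrc2 (0.16), and 3 fell, the largest fall being that of Sdhd (-0.45). Of the 16 ATP synthase genes 0 were called by limma, 1 had an unadjusted p under 0.05, and 0 were called by edgeR or DESeq2 on the recovered reads. With equal totals 15 of the 16 and 28 of the 30 were called lower, beside a shift of the median of all genes to -0.38. Of 22 glycolysis genes 5 rose and 6 fell, below the 29.2% of all genes called in each direction, and with equal totals 3 rose and 15 fell. Slc2a6, a lysosomal hexose transporter, had 22596 and 22907 in statin LPS libraries, against 9859 and 11162 in statin libraries (log2 change 1.12, SE 0.15, adjusted p = 3.27e-04). Egln3, an oxygen-sensing hydroxylase, had 41.8 and 18.6 in statin LPS libraries, against 56.4 and 248 in statin libraries (log2 change -2.05), a fall that missed the threshold without either statin LPS replicate and was -0.99 without statin replicate 2 (adjusted p 0.0527 to 0.287 by limma).

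JmjC histone demethylases and members of the Polycomb complex PRC2 had a median log2 change of 0.07, close to that of all genes. Of 28 tested, 11 rose and 2 fell on the deposited scale, but 5 rose and 17 fell with equal totals. Kdm6b, a demethylase that removes a repressive histone mark and is known to be induced by LPS, had 11010 and 11021 in statin LPS libraries, against 3512 and 2647 in statin libraries (log2 change 1.85, SE 0.14, adjusted p = 1.21e-05). Kdm4a, another histone demethylase, had 14794 and 15538 in statin LPS libraries, against 3549.6 and 3598 in statin libraries (log2 change 2.08, SE 0.10, adjusted p = 8.71e-07). Jarid2, a cofactor of PRC2, had 12907 and 13044 in statin LPS libraries, against 3494 and 2766 in statin libraries (log2 change 2.06). Phf19, another PRC2 cofactor, fell and had 235 and 255 in statin LPS libraries, against 531 and 575 in statin libraries (log2 change -1.17, SE 0.14, adjusted p = 1.57e-04).

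Of 21 genes of the integrated stress response and the unfolded protein response, 13 rose and 4 fell on the deposited scale. With equal totals 10 rose and 7 fell, and with quantile normalization 11 rose and 8 fell. Ppp1r15a, which restarts translation by dephosphorylating eIF2α, had 12641 and 11268 in statin LPS libraries, against 2646 and 2332 in statin libraries (log2 change 2.26, SE 0.13, adjusted p = 3.14e-06). Atf4, the central transcription factor, had 33732 and 34145 in statin LPS libraries, against 18170 and 17490 in statin libraries (log2 change 0.93), and Slc7a11, the cystine transporter, had 30882 and 32676 in statin LPS libraries, against 10503 and 8497 in statin libraries (1.75). The 4 that fell, Sdf2l1 (log2 change -1.16), Edem1 (-0.88), Pdia4 (-0.80) and Dnajb9 (-0.36), act in folding or degradation in the endoplasmic reticulum. Nrf2 targets rose in 9 of 16 cases and 1 fell, and with equal totals 6 rose and 2 fell. Mt2, a metallothionein that binds zinc, had 70602 and 68082 in statin LPS libraries, against 8269.5 and 9186 in statin libraries (log2 change 2.99, SE 0.17, adjusted p = 2.53e-06), but 73.5% of its exonic bases are shared with a gene on the opposite strand. Gclc, the first enzyme of glutathione synthesis, was the gene that fell (log2 change -0.38).

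Of 20 genes of macrophage identity, 7 rose and 5 fell, near the 29.2% of all genes in each direction, and with equal totals 5 rose and 10 fell. Adgre1, the F4/80 antigen, had 14568 and 14343 in statin LPS libraries, against 4286 and 6159 in statin libraries (log2 change 1.49, SE 0.17, adjusted p = 1.40e-04). The Fc receptor gene Fcgr3 fell (log2 change -1.79) while Fcgr2b, the inhibitory receptor, rose (0.95). Among the 12 genes of alternative activation tested, 5 rose and 3 fell. Those that rose were Ccl22, Tgm2 and Il4ra, and Il10 and Ccl17, which passed the minimum only through statin LPS. Without Il10 and Ccl17, 3 of 10 rose and 3 fell, near the 29.2% of all genes in each direction, with a median log2 change of -0.09. Osteoclast genes also occur in RAW macrophages, and Ocstamp, which takes part in osteoclast fusion, had 191 and 185 in statin LPS libraries, against 27.8 and 22.6 in statin libraries (log2 change 2.86), while the proton pump subunit Atp6v0d2 had 1738 and 1693 in statin LPS libraries, against 4338 and 3067 in statin libraries (-1.09).

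The response was then set against that of cells without statin, to ask where it differed. The 2 responses share no library. The difference of the 2 log2 changes, (statin LPS minus statin) minus (ctl LPS minus Ctrl), was tested in the same limma fit. Genes tested were chosen by the statin LPS and statin libraries alone. Another 230 entries averaged at least 10 over all 8 libraries but were left out. Counts for the response without statin and for the difference therefore omit genes expressed mainly in cells without statin. It was positive for 2970 genes (25.9%) and negative for 3426 (29.8%). With equal totals it was positive for 5919 and negative for 1824, since the median difference of all genes was then 0.43 instead of -0.03. The sign of small differences thus depended on the scale, and the differences named here keep their sign under both scalings unless stated. Of the 936 genes more than 2-fold higher in statin LPS than in statin, 832 (88.9%) were also called more than 2-fold higher in ctl LPS than in Ctrl. That is 38.6% of the 2158 genes, among those tested, of the response without statin. For the genes more than 2-fold lower the shared number was 660, 80.0% of the 825 with statin and 33.2% of the 1985 without.

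**Figure D4:**
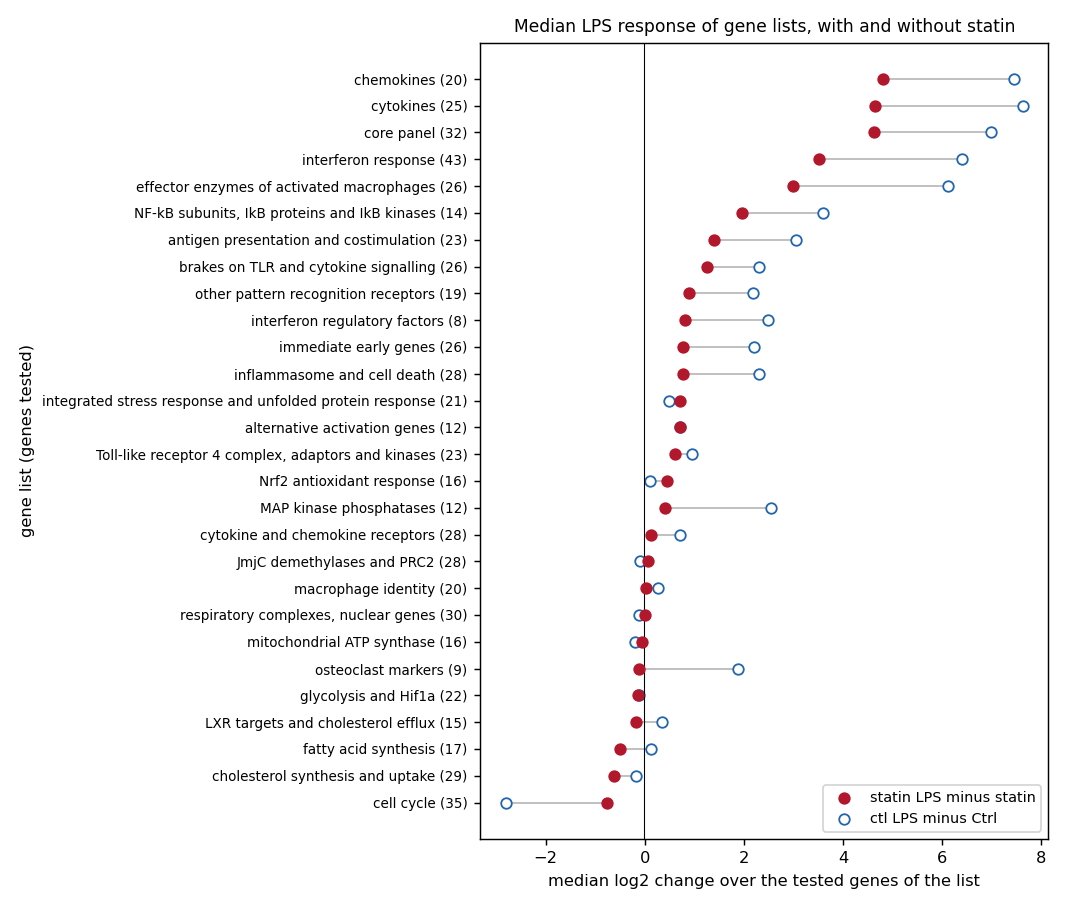
Median log2 change (horizontal) of each gene list with at least 8 tested genes (vertical, number of genes tested in brackets), filled for statin LPS minus statin and open for ctl LPS minus Ctrl. The vertical line is the median of all genes with statin, -0.02. Inflammatory lists lie to the right in both responses and less far with statin, and the cell cycle list lies less far to the left with statin. Medians include genes that passed the minimum only through statin LPS, which raises the filled points of some lists. Without such genes the median with statin was 2.11 instead of 2.98 for effector enzymes and -0.09 instead of 0.70 for alternative activation.

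On the log2 scale most inflammatory genes rose less with statin. The difference was negative for all 43 interferon response genes, and still for 40 with equal totals and 39 with quantile normalization. Their median log2 change was 3.52 with statin and 6.40 without. Cytokines had medians of 4.65 and 7.62, and the difference was negative for 18 of 25 (15 under either other scaling). Without the 4 cytokines that passed the minimum only through statin LPS, the median with statin was 3.84. The difference was positive for Il16 (0.44, SE 0.12, adjusted p = 0.015) and Tnfsf14 (2.76, SE 1.03, adjusted p = 0.049), and for 3 cytokines with equal totals and 5 with quantile normalization. Tnfsf14 averaged below 10 in statin and passed the minimum only through statin LPS, with no such condition on ctl LPS. This choice favoured a positive difference, so its call shows no larger response with statin. Chemokines had medians of 4.81 and 7.44, and the difference was negative for 14 of 20 (13 under either other scaling). Without the 7 chemokines that passed only through statin LPS, the median with statin was 4.72. Of the 32 genes of the core panel, 25 had a negative difference and 1, Ccnd1, a positive one, while with equal totals 22 were negative and 3 positive.

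Mx1, Ifnb1 and Il6 had lower levels after LPS with statin than without. Mx1 reached 873 and 754 in statin LPS and 33298 and 33316 in ctl LPS, from similar levels before LPS, 42.1 and 32.9 in statin and 50.7 and 31.4 in Ctrl (difference -5.26, SE 0.30, adjusted p = 3.53e-06). Ifnb1 reached 857 and 619 in statin LPS and 9401 and 9642 in ctl LPS, with 13.4 and 11.3 in statin and 9.37 and 4.90 in Ctrl (difference -4.47, SE 0.38, adjusted p = 2.47e-05). Il6 had 539 and 600.3 in statin LPS and 22543 and 21827 in ctl LPS after it, set beside 22.4 and 19.7 in statin and 22.6 and 27.4 in Ctrl before it (difference -5.05, SE 0.18, adjusted p = 9.63e-07).

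Cxcl2, Tnf and Dusp1 had higher levels before LPS with statin than without. Cxcl2 had 23054 and 17072 in statin and 659.7 and 564 in Ctrl, and after LPS 619353 and 614126 in statin LPS and 346517 and 329576 in ctl LPS (difference -4.15, SE 0.20, adjusted p = 1.77e-06). Its log2 change was therefore smaller with statin although its level after LPS was higher. Tnf had 18290 and 14292 in statin and 2311 and 2147 in Ctrl, and after LPS 406149 and 406577 in statin LPS and 429352 and 449283 in ctl LPS (difference -2.97, SE 0.17, adjusted p = 3.16e-06). Dusp1 had 3032 and 2105 in statin and 361 and 374 in Ctrl, and 2502 and 2335 in statin LPS and 3369 and 3407 in ctl LPS (difference -3.26, SE 0.20, adjusted p = 5.31e-06), so that it was near its level after LPS before LPS was given.

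The difference was not called for 4 cytokines of the core panel, Csf3, Il10, Il12b and Csf2. Csf3 had 52705 and 50503 in statin LPS and 3617 and 3507 in ctl LPS, with 59.1 and 48.9 in statin and 4.68 and 1.96 in Ctrl, so the level was higher with statin both before and after LPS while the difference of the log2 changes was 0.12, SE 0.36, adjusted p = 0.80, with a 95% interval of -0.72 to 0.95. With its few counts in Ctrl, the value depended on the amount added before the logarithm, and with 5 in place of 1 the difference was 1.02 (adjusted p = 0.00445 by limma), and it was 1.08 with quantile normalization (adjusted p = 0.0132 by limma). Il10 had 87.9 and 93.0 in statin LPS and 59.6 and 36.3 in ctl LPS, with 0 in all 4 libraries without LPS (difference 0.94, SE 0.67, adjusted p = 0.27, 95% interval -0.61 to 2.49). Il12b had 60.9 and 65.1 in statin LPS and 304 and 101 in ctl LPS, with 0 and 0 in statin and 0.781 and 0 in Ctrl (difference -1.05, SE 0.83, adjusted p = 0.31, 95% interval -2.95 to 0.85). Csf2 had 560.3 and 691 in statin LPS and 199 and 195 in ctl LPS, with 4.48 and 8.46 in statin and 0 and 0 in Ctrl (difference -1.20, SE 0.45, adjusted p = 0.051, 95% interval -2.23 to -0.16), and edgeR and DESeq2 on recovered reads called the difference negative (adjusted p = 0.0289 and 0.0345), while its sign turned with quantile normalization. These intervals do not show that the responses were alike.

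Cell cycle genes fell less with statin. The difference was positive for 31 of 35, and for 32 with equal totals or quantile normalization. The median log2 change was -0.76 with statin and -2.80 without. All 5 of the largest positive differences were genes of cell division or DNA replication or repair, and they were low in both statin groups relative to Ctrl. Esco2, which links sister chromatids, had 189.7 and 205 in statin LPS libraries, against 424 and 484 in statin libraries, and 21.0 and 13.8 in ctl LPS libraries, against 1843 and 1660.3 in Ctrl libraries (difference 5.40, SE 0.27, adjusted p = 1.93e-06). Ccnf, cyclin F, had 612 and 569.8 in statin LPS libraries, against 922 and 968 in statin libraries, and 41.2 and 37.6 in ctl LPS libraries, against 2689 and 2126 in Ctrl libraries (difference 5.21, SE 0.18, adjusted p = 8.25e-07). Fam83d, Fbxo5 and Pif1 differed by 5.65, 5.24 and 5.15. These 5 genes lay between 2.504 and 41.2 in ctl LPS libraries, below the lowest statin LPS value of each.

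Among the 5 largest negative differences, Tmcc3 changed direction. It had 105 and 85.0 in statin LPS libraries, against 305 and 124 in statin libraries, and 1144 and 1109 in ctl LPS libraries, against 15.6 and 11.8 in Ctrl libraries (difference -7.31, SE 0.52, adjusted p = 9.36e-06). Its fall with statin was -0.39 without statin replicate 1 (adjusted p = 0.21 by limma), and without either statin LPS replicate it missed the threshold too (adjusted p 0.0835 and 0.176). Pdcd1, the checkpoint receptor PD-1, had 130.5 and 143 in statin LPS libraries, against 44.8 and 21.6 in statin libraries, and 562 and 597 in ctl LPS libraries, against 0 and 0 in Ctrl libraries (difference -7.08, SE 0.47, adjusted p = 6.98e-06). Tnc, the matrix protein tenascin C, had 10410 and 9034 in statin LPS libraries, against 3248 and 2168 in statin libraries, and 34817 and 35442 in ctl LPS libraries, against 123 and 73.5 in Ctrl libraries (difference -6.65, SE 0.34, adjusted p = 2.26e-06). Gm13889 and P2rx5, an ATP-gated channel, differed by -6.56 and -6.20. On the deposited scale all 5 were higher in statin than in Ctrl libraries and lower in statin LPS than in ctl LPS libraries. For Gm13889, with 1600 and 1502 in statin LPS and 1831 and 1794 in ctl LPS, the second order depends on the scale.

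Opposite responses were few. More than 2-fold higher with statin, called lower without it and with a positive difference were 5 genes, among them Sla, Xirp1, Pgm5 and Slfn3, which were named after their values were seen. Sla, a Src-like adaptor that damps receptor signalling, had 1298 and 1179 in statin LPS libraries, against 464 and 736 in statin libraries, and 218 and 220.3 in ctl LPS libraries, against 669 and 764 in Ctrl libraries. More than 2-fold lower with statin, called higher without it and with a negative difference were 24 genes. One was Abcg1, which fell with statin as given above and had 13257 and 13409 in ctl LPS libraries, against 10060 and 10929 in Ctrl libraries (log2 change 0.35, difference -3.77, SE 0.14, adjusted p = 1.07e-06). Another was Scd1, a fatty acid desaturase, with 1784 and 1805 in statin LPS libraries, against 4947 and 4802 in statin libraries, and 12336 and 12450 in ctl LPS libraries, against 2389.8 and 3807 in Ctrl libraries. Both were chosen after their values were seen.

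**Figure D5:**
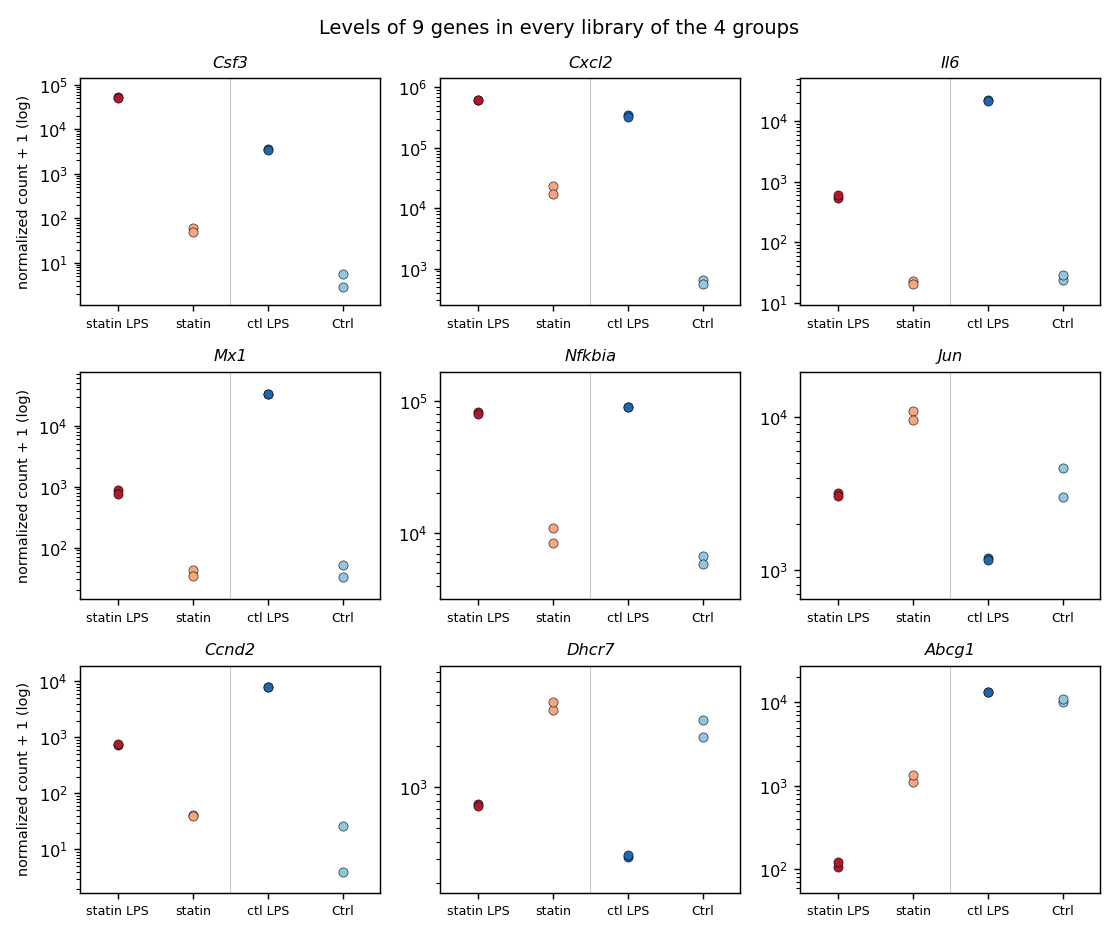
Normalized counts plus 1 (vertical, log axes that differ between panels) of 9 genes in the 8 libraries, by group (horizontal), 1 point per library. Csf3 and Cxcl2 are higher in statin LPS than in ctl LPS, Il6, Mx1, Ccnd2 and Abcg1 are lower, and Jun and Dhcr7 fall after LPS both with and without statin.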

How the data were processed

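RNA of 8 libraries from RAW macrophages was sequenced after ribosomal RNA depletion with a stranded kit. Per the labels and the submitters' processing notes, reads were aligned to mm10 with STAR 2.5.3, counted with HTSeq 0.9.1 and normalized with DESeq2 1.18.1. The methods of the study name other counting software, and the strand setting of the count was not given in the sources used here. The deposited table holds normalized counts per gene, a signal that the authors made by dividing read counts by a factor for each library. All values were whole multiples of the value of 1 read (100% within 0.01 read), so reads were recovered. Another 12 columns of values in the same table were not used, nor were the files that hold the authors' own fold changes and p-values. In 27 entries a spreadsheet date stood in place of the symbol, 18 of them among the genes tested.

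Genes with a mean of at least 10 over the 4 statin LPS and statin libraries were tested with limma 3.58.1 on log2(normalized count + 1), with all 8 libraries in 1 fit that shares the spread of the 4 groups, and with Benjamini-Hochberg adjustment over 11478 genes. The difference of the LPS responses came from the same fit. On recovered reads, edgeR 4.0.16 (quasi-likelihood) called 3347 higher and 3402 lower, and DESeq2 1.42.0 called 3291 and 3008. A simulated table was used to test the fit.

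The members and the 33 gene lists were chosen with earlier results of these data known. Named were the 32 genes of a core panel, the largest called rise and fall of each list, the 10 largest rises and falls among genes of at least 100 in the higher group with groups apart, and the 5 largest differences in each direction. Other list members were named as examples after their values were seen, and the results of a few genes are not reported here. Fold limits for genes with 0 reads in statin used 3 reads over the group. Alternatives were a pseudocount of 5, other filters, other scalings, count models, a replicate block, the 4 libraries alone, and leaving out libraries. Promoters came from RefSeq (GRCm38.p6), 250 bases before to 50 after the start, and gene overlaps from the annotation of the same build. Analyses used R 4.3.3 and Python 3.11.15.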

Additional observations from a re-analysis of the deposited data

Results flagged for a closer look

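The results listed here come from genes of the core panel whose LPS response differed with statin from that without, by limma's test of the difference itself (statin LPS minus statin, minus ctl LPS minus Ctrl, on log2(normalized count + 1)), and the 5 largest differences in each direction.

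Among cytokines and chemokines, the difference was -2.97 for Tnf, -0.39 for Il1a, -2.21 for Il1b, -5.05 for Il6, -4.15 for Cxcl2, -3.15 for Cxcl10, -2.30 for Ccl5 and -4.47 for Ifnb1. Each had a smaller log2 change with statin, and the sign of the difference for Il1a depended on scaling. On the deposited scale Il1b was higher in statin LPS (223873 and 233862) than in ctl LPS (160572 and 161090), and so was Cxcl2. On that scale Tnf, Il6, Cxcl10, Ccl5 and Ifnb1 were lower in statin LPS than in ctl LPS, and the replicates of Il1a overlapped. For Tnf the gap was small, with 406149 and 406577 in statin LPS and 429352 and 449283 in ctl LPS. Library totals differed more, 50.7 M and 50.3 M in statin LPS against 64.2 M and 64.0 M in ctl LPS, so the order of Tnf depends on the scale.

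In the interferon response it was -5.26 for Mx1, -2.47 for Ifit1 and -3.37 for Irf7. Signalling genes differed by -0.78 for Nfkbia, -3.11 for Tnfaip3, -2.15 for Socs3, -3.26 for Dusp1 and -1.21 for Fos. The Nfkbia difference missed the threshold with equal totals (-0.32, adjusted p = 0.131 by limma) and with quantile normalization (-0.31, adjusted p = 0.22 by limma). Fos fell with statin and had 2394 and 2474 in ctl LPS libraries, against 1912 and 1491 in Ctrl libraries. Effector and surface genes differed by -3.04 for Nos2, -2.94 for Ptgs2, -3.75 for Irg1, -2.11 for Kdm6b and -4.53 for Cd86. On the deposited scale Ptgs2 and Kdm6b were higher in statin LPS than in ctl LPS, and Nos2, Irg1 and Cd86 were lower.

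Sterol genes differed by -2.05 for Abca1 and -0.90 for Hmgcs1, which missed the threshold under equal totals, quantile normalization and both count models. Ccnd1 had the positive difference of the panel, 0.62.

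The largest positive differences were 5.65 for Fam83d, 5.40 for Esco2, 5.24 for Fbxo5, 5.21 for Ccnf and 5.15 for Pif1. The largest negative ones were -7.31 for Tmcc3, -7.08 for Pdcd1, -6.65 for Tnc, -6.56 for Gm13889 and -6.20 for P2rx5. Pdcd1 had 0 reads in both Ctrl libraries, so its response without statin was at least 442-fold, with 3 reads over the group as the limit, and its fitted difference depends on the pseudocount.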

How the results depend on the processing

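Scaling moved the counts most among the alternatives run. With equal totals 1512 genes were higher and 6655 lower in statin LPS, 1717 of them more than 2-fold lower, and the difference of the LPS responses was positive for 5919 and negative for 1824. With quantile normalization the numbers were 2689 higher and 3771 lower. Leaving out both ctl LPS replicate 1 and statin replicate 2 gave 2230 higher and 2181 lower. Without 1 library in turn, 2451 to 3853 genes were higher and 2475 to 3832 lower, 870 to 944 more than 2-fold higher and 715 to 844 more than 2-fold lower, and the difference was positive for 2408 to 3384 and negative for 2855 to 3808. The Cd14 rise turned to -0.025 with quantile normalization, and the Il1a difference to 0.064 with equal totals and 0.32 with quantile normalization. The cause was not tested. For named genes across alternatives, the comparison of statin LPS with statin was classed as unchanged 1734 times. It lost a call 61 times, gained one 16 times and changed the sign of a called gene 1 time. For the difference of the LPS responses these numbers were 683, 17, 9 and 2. The sign change of Csf2 with quantile normalization, a difference that was not called, was classed as unchanged. Leaving out the 40 uneven genes was an alternative chosen after seeing the data, and it moved no count by over 1.5 times.

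With the replicate number as a block, 3335 genes were higher and 3310 lower, and the difference was positive for 2907 and negative for 3404. Deviations of same-numbered libraries from their group means had correlations of -0.09 to 0.11 over 10149 genes. Such values cannot decide whether same-numbered libraries were handled together, since each deviation also carries the noise of single libraries. With 2 libraries a group, precision is limited by their number, and genes near the minimum of 10 rest on few reads.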
